A study of Mus musculus with 8 samples.

Results

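The Hox genes encode homeodomain transcription factors that give body regions their identity along the head-to-tail axis. They were taken here as every gene whose symbol is Hox, a cluster letter from a to d and a number, which gave 39 of the 47729 genes counted. The genes lie in 4 clusters: 11 in cluster A on chromosome 6, 10 in cluster B on chromosome 11, 9 in cluster C on chromosome 15 and 9 in cluster D on chromosome 2. The number in each symbol is the paralog group, which runs from 1 at the 3′ end of a cluster to 13 at its 5′ end, and members of a group in different clusters descend from a common ancestral gene.

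RNA was sequenced from E14TG2a cells, a mouse embryonic stem (ES) cell line of the 129/Ola strain, kept for 48 h in medium with 15% serum and LIF, the cytokine that holds ES cells in self-renewal. All 4 groups were E14TG2a cells grown this way, with 2 libraries each. WT is the unmodified line, and its libraries are biological replicates. QKO is TCF7(-/-), TCF7L1(-/-), TCF7L2(-/-), LEF1(-/-), so that it lacks the full-length form of every TCF/LEF factor, the DNA-binding partners of beta-catenin in Wnt signalling. QT7 and QT7L1 are described as QKO cells given back a single copy of TCF7 or of TCF7L1, and their libraries, like those of QKO, come from clones A and B. Their genotype tags name the factors the other way round, with TCF7L1(+/-) for QT7 and TCF7(+/-) for QT7L1, so both names are used here only as the sample titles give them. With 2 libraries a group, a p-value measures the spread between these libraries, which are clones in 3 of the groups. The comparisons ask how the transcriptome changed on loss of the TCF/LEF factors and on return of either.

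In embryos, Hox genes are switched on in the order in which they lie on the chromosome, from group 1 towards group 13, as cells leave pluripotency and the trunk grows. In ES cells the clusters are known as model Polycomb targets, covered by histone H3 methylated at lysine 27 and transcribed little. Wnt signals, FGF and retinoic acid, often through the caudal factors of the Cdx family, are known to open them from the 3′ end.

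The property that the rule did not use and that all 39 members shared was the homeobox. A motif of 12 bases, the codons TGG, TTN, CAN and AAN in a row, which encodes part of the third helix that contacts DNA, was found in a coding exon of 39 of 39 members. The 72 bases around it are shown for the 4 members of group 13, to which many of the counts belonged, and for 2 further members, of which Hoxb9 carried counts in every library and Hoxa10 was called, with the motif in capitals. Each was taken from the transcript of GENCODE M21 (GRCm38) and runs 5′ to 3′ on the coding strand.
Hoxa13 (chr6:52258943-52259014, minus strand): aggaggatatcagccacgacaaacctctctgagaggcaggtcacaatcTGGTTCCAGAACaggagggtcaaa
Hoxb13 (chr11:96196113-96196184, plus strand): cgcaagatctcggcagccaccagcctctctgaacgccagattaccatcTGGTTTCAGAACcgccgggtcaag
Hoxc13 (chr15:102927303-102927374, plus strand): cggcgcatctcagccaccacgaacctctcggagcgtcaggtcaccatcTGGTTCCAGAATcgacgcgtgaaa
Hoxd13 (chr2:74670023-74670094, plus strand): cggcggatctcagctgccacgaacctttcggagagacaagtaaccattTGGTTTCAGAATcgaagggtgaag
Hoxa10 (chr6:52232569-52232640, minus strand): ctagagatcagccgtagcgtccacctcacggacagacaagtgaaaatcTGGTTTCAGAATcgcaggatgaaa
Hoxb9 (chr11:96274752-96274823, plus strand): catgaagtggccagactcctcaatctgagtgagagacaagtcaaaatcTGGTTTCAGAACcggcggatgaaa
Over these 72 bases the members of group 13 were 70.8% (Hoxa13 and Hoxb13) to 81.9% (Hoxc13 and Hoxd13) identical to each other. Hoxc13 was 55.6% identical to Hoxb9. Likeness of this kind bears on the counts only where reads fit several members. The longest exact run that Hoxc13 shared with a member of another cluster was 21 bases (with Hoxd4) and that of Hoxa13 was 23 bases (with Hoxd8). Hoxb9 shared 50 bases with Hoxc9 and Hoxa7 shared 47 with Hoxb4.

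The libraries were checked against their labels on genes outside the clusters. Library totals ran from 31573536 to 43362627 counts. All 12 pluripotency markers (among them Pou5f1, Nanog and Sox2) had 10 or more counts in all 8 libraries, with summed levels of 6878 to 8167 CPM (counts per 1000000 counts of the scaled library size). Of the targeted genes, Tcf7 was at 59.6 and 61.9 CPM in WT and 7.97 to 20.9 in the other 6 libraries, Tcf7l1 at 73.6 and 68.8 against 22.4 to 39.1, and Lef1 at 6.57 and 2.40 against 0.212 to 1.33, while Tcf7l2 overlapped between groups (4.72 to 8.14). Tcf7 was not called between QT7 and QKO (adjusted p by edgeR 0.410), nor Tcf7l1 between QT7L1 and QKO (0.217), and counts over a whole gene do not check a full-length protein or a returned copy. The first QT7 library stood apart from the rest for several Hox genes. Values without it are given beside several of the results that rest on it.

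Most Hox genes were close to silent. A threshold of 10 counts was passed in all 8 libraries by 4 members (among them Hoxa7, Hoxb9 and Hoxc13), in 2 to 7 libraries by 9 members, in 1 library by 3 members and in no library by 23. By library, 7 and 7 members passed it for WT, 10 and 9 for QKO, 13 and 9 for QT7 and 5 and 7 for QT7L1. That is between 12.8% and 33.3% of the Hox genes, against 61.8% to 64.9% of all protein-coding genes in the same libraries.

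By position, group 13 held the largest share of the counts, most of it from Hoxc13. Over the 8 libraries the 39 members had 3283 counts, of which group 13 had 1388 or 42.3%, groups 9 to 12 had 25.0%, groups 4 to 8 had 14.6% and groups 1 to 3 had 18.1%. Hoxc13 alone had 957 of these counts, 450 of them in the first QT7 library. The share of groups 1 to 3 also came mostly from a single member, so these shares do not describe a pattern along the clusters. All 4 members of group 13 reached 10 counts in at least 1 library. Of the others, 2 of 8 did so in groups 1 to 3, 5 of 15 in groups 4 to 8 and 5 of 12 in groups 9 to 12. By cluster, 5 of 11 members of A, 4 of 10 of B, 5 of 9 of C and 2 of 9 of D did so.

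**Figure D1:**
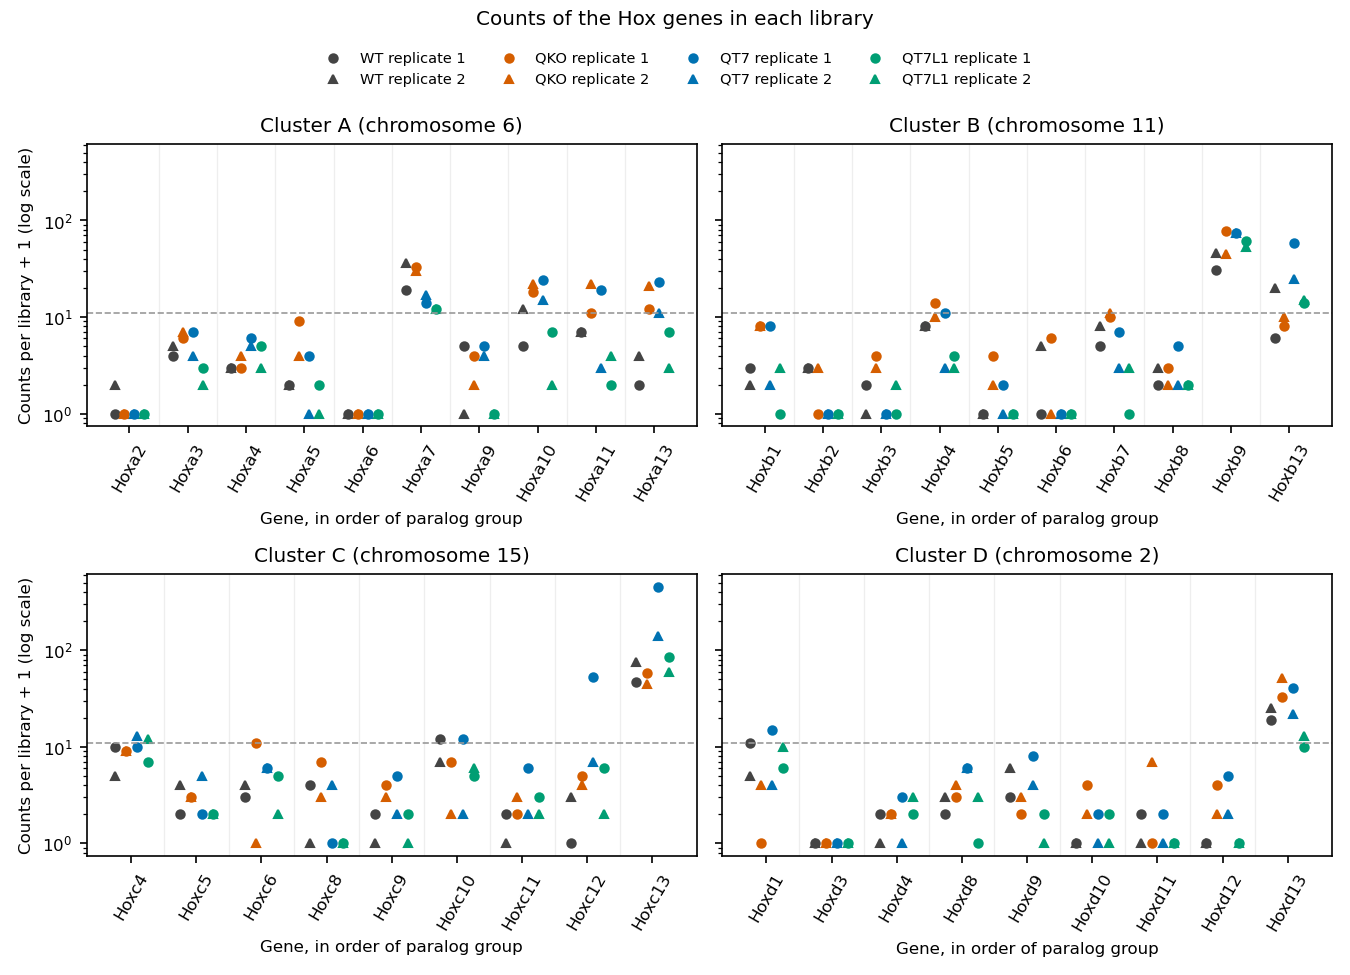
Counts plus 1 of the Hox genes with values reported here (log scale) by cluster, with genes in order of paralog group from 1 to 13; circles are replicate 1 and triangles replicate 2 of each group, and the dashed line marks 10 counts. Hoxa7, Hoxb9 and Hoxc13 stand above the line in all 8 libraries, and 23 genes stay below it in every library.

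The 23 members that never reached 10 counts had at most 8 in any library. In cluster A these were Hoxa2 (0 to 1 counts), Hoxa3 (1 to 6), Hoxa4 (2 to 5), Hoxa5 (0 to 8), Hoxa6 (0) and Hoxa9 (0 to 4). In cluster B they were Hoxb1 (0 to 7), Hoxb2 (0 to 2), Hoxb3 (0 to 3), Hoxb5 (0 to 3), Hoxb6 (0 to 5) and Hoxb8 (1 to 4). In cluster C they were Hoxc5 (1 to 4), Hoxc8 (0 to 6), Hoxc9 (0 to 4) and Hoxc11 (0 to 5), all in the middle of that cluster. In cluster D they were Hoxd3 (0), Hoxd4 (0 to 2), Hoxd8 (0 to 5), Hoxd9 (0 to 7), Hoxd10 (0 to 3), Hoxd11 (0 to 6) and Hoxd12 (0 to 4). The 2 members with 0 counts in every library were Hoxa6 and Hoxd3, and a count of 0 allows up to 3 counts, or 0.068 to 0.0939 CPM by library. In the annotation, 62.3% of the exon bases of Hoxd3 and 52.3% of those of Hoxd4 overlap another gene on the same strand, and reads from such bases can be left uncounted as ambiguous.

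Levels were compared between members per length. On the scale of CPM per kb of exon, averaged over the 8 libraries, Hoxc13 came first at 1.28 (0.496 to 4.67 over libraries), or 0.798 without the first QT7 library, and Hoxb9 was at 0.609 (0.365 to 0.928). These ranges overlapped. Hoxd13 was at 0.285, Hoxc12 at 0.230 (0.0793 without that library), Hoxb13 at 0.221, Hoxa7 at 0.197 and Hoxa13 at 0.103. In WT cells alone, Hoxc13 was at 0.638 ± 0.0748 (SD, n = 2) CPM per kb, Hoxb9 at 0.381 ± 0.0223, Hoxa7 at 0.236 ± 0.0566 and Hoxd13 at 0.223 ± 0.00550. The WT libraries of Hoxc13 lay above those of Hoxb9. Hoxc13, at the 5′ end of cluster C, is known for its role in hair and nails.

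Summed over all 39 members, the Hox level in the 2 WT libraries was 8.23 and 7.71 CPM. It was 12.7 and 9.92 CPM for QKO, 24.8 and 9.48 for QT7 and 8.81 and 7.22 for QT7L1. Both QKO libraries lay above both WT and both QT7L1 libraries. The QT7 libraries lay on either side of QKO, and the first of them stood apart from the other 7. Hoxc13 alone made up 12.3% to 46.3% of the Hox counts in a library, the highest share being in the first QT7 library. Without Hoxc13 the mean CPM of each group was 6.40 ± 0.555 (SD, n = 2) for WT, 9.83 ± 1.59 for QKO, 9.78 ± 5.01 for QT7 and 5.83 ± 0.578 for QT7L1. In bulk RNA, fewer cells that express a gene and less RNA per cell cannot be told apart, and at these levels a small share of the cells could carry all the counts.

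**Figure D2:**
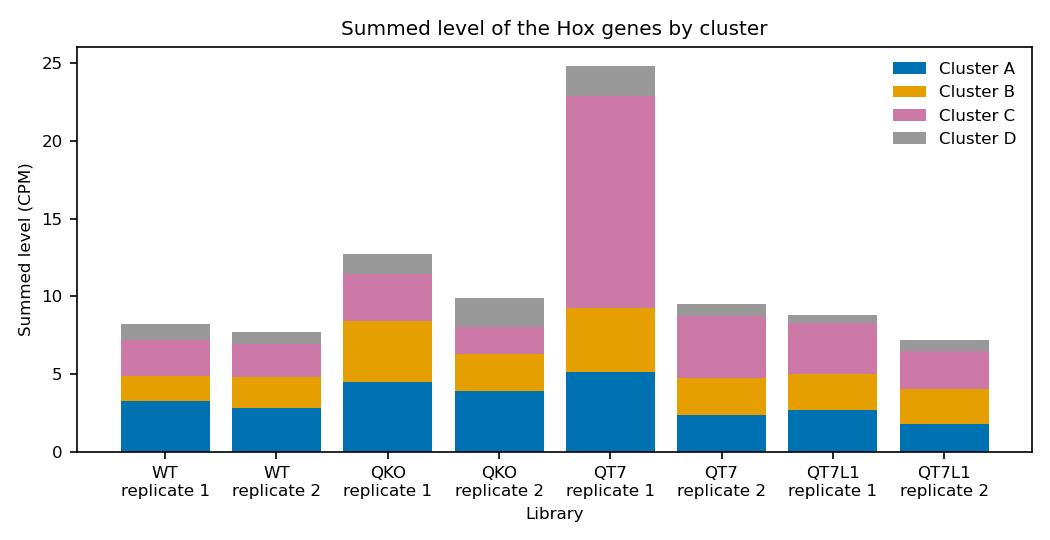
Summed level (CPM) of the Hox genes in each library, stacked by cluster from a base of 0. The first QT7 library reaches 24.8 CPM, of which cluster C makes up 13.7, and the other 7 libraries lie between 7.22 and 12.7.

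The tests across all genes used edgeR's quasi-likelihood test on 16515 genes, with p-values adjusted over all of them by the Benjamini-Hochberg method, and a gene was called where its adjusted p was under 0.05. Only 12 of the 39 members passed the filter on low counts, among them Hoxa7, Hoxa10, Hoxa11, Hoxa13, Hoxb9, Hoxb13, Hoxc4, Hoxc10, Hoxc13, Hoxd1 and Hoxd13. A member that passed only through the group in which it was high was bound to differ, so the counts of called members are descriptions of these 12 and say nothing of the other 27. With 2 libraries a group, libraries often fail to overlap without a difference between groups. The share of all genes that did so is not given here, so non-overlap below is a description only.

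When all TCF/LEF factors were lost (QKO against WT), 1 of the 12 Hox genes tested was called, Hoxa13, which was higher in QKO; among all genes tested 26.4% were called, and 11.7% were called higher. The median fold of the 12 was 0.40 on the log2 scale, against -0.01 over all genes tested. Hoxa13 is the 5′-most gene of cluster A and acts in the limb tips and the hindgut and genital region. It had 1 and 3 counts in WT and 11 and 20 in QKO, so the groups did not overlap but the WT level rested on 4 counts. Hoxa13 reached 10 counts only in QKO and QT7 libraries. It was thus tested only through groups in which it was high, and its call is a description. The ratio of the summed counts, scaled by library size, was 8.63 (95% exact binomial interval 3.05 to 33.6, counting error only). The fitted log2 fold was 3.03 ± 0.78 (SE), with an adjusted p of 0.0191. That call was lost without the first WT library (adjusted p 0.0929), the second WT library (0.0971) or the second QKO library (0.132).

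The neighbours of Hoxa13 at the 5′ end of cluster A also lay higher in both QKO libraries than in both WT libraries, without being called in the fit of all groups. Like Hoxa13, they were tested only through groups in which they were high, so their values are descriptions. Hoxa10, which acts in the uterus and lower spine, had 4 and 11 counts for WT and 17 and 21 for QKO, or 0.187 ± 0.0878 and 0.555 ± 0.0386 CPM (SD, n = 2). Its libraries did not overlap, its fitted log2 fold was 1.51 ± 0.62 (SE) and its adjusted p by edgeR was 0.0961, or 0.0424 in a fit of only the WT and QKO libraries. Hoxa11, which acts in the forearm and the uterus, had 6 and 6 counts in WT and 10 and 21 in QKO, with a log2 fold of 1.48 ± 0.84 (SE) and an adjusted p of 0.219. Of the exon bases of Hoxa11, 35.0% overlap its antisense RNA Hoxa11os, which had 1 to 4 counts in 5 libraries, 17 in the first QT7 library and 0 in both QT7L1 libraries. The sources used here do not say whether counting used strand, and without it reads from the pair cannot be told apart.

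Hoxd13, the 5′ end of cluster D and a digit gene, had 18 and 24 counts in WT and 32 and 51 in QKO, without overlap on the CPM scale. Its log2 fold was 1.12 ± 0.44 (SE), with an adjusted p of 0.0831; in a fit of only the WT and QKO libraries the value was 0.0446. At the 5′ ends of clusters C and B the libraries of QKO and WT overlapped. Hoxc13 had 46 and 75 counts in WT and 57 and 44 in QKO, and Hoxb13, a gene of the prostate and tail tip, had 5 and 19 against 7 and 9. Hoxb9, which acts in the thorax, had 30 and 45 counts in WT and 77 and 44 in QKO, and its libraries did not overlap on the CPM scale.

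**Figure D3:**
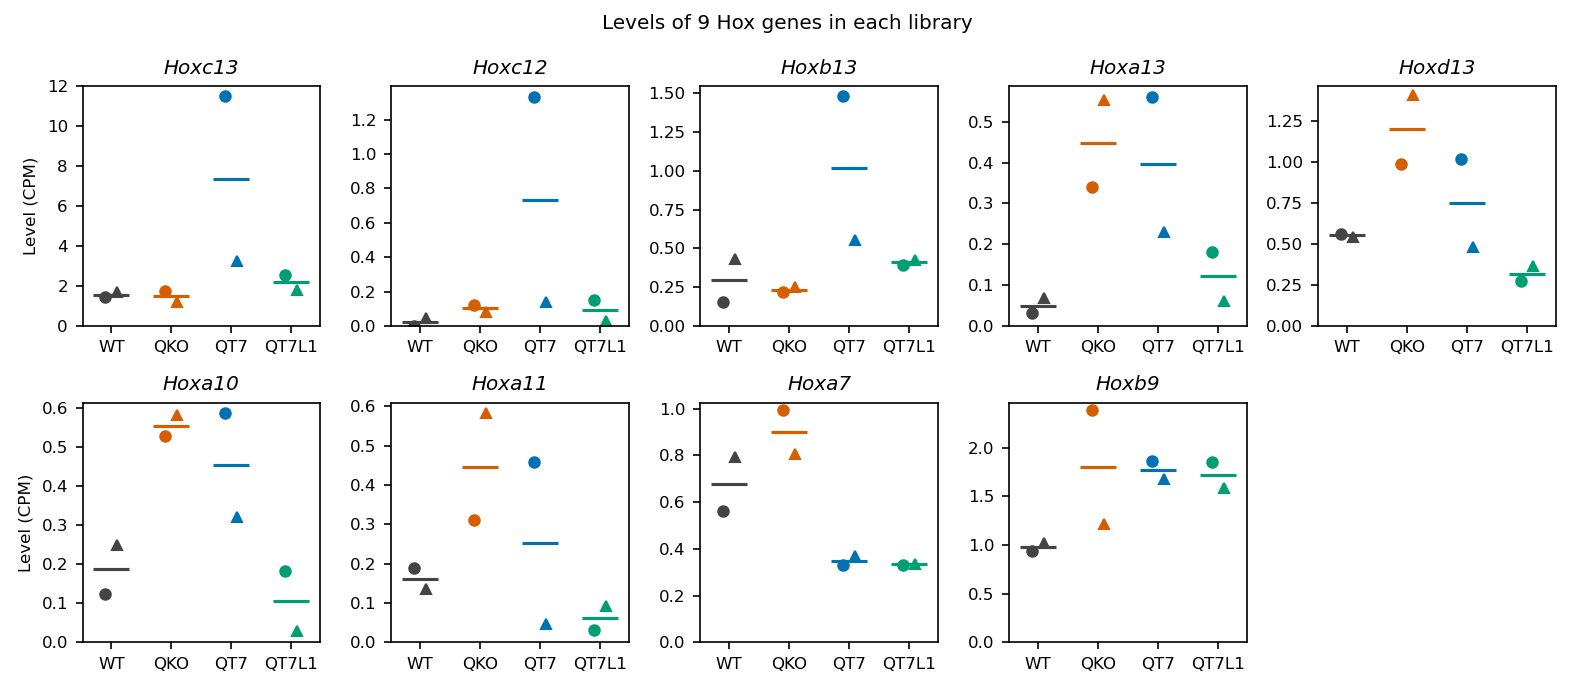
Level (CPM, linear axis from 0, scaled per gene) of 9 Hox genes in each library; circles are replicate 1, triangles replicate 2 and bars the mean of each group. Hoxa13, Hoxa10 and Hoxd13 are lowest in WT or QT7L1, and the first QT7 library holds the highest level of Hoxc13, Hoxc12 and Hoxb13.

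In QT7 cells against QKO, 3 of the 12 Hox genes tested were called, 2 higher and 1 lower; of all genes tested 26.9% were called, 14.8% higher and 12.1% lower. The median of the 12 was 0.04 on the log2 scale and that of all genes tested was 0.05. Hoxc13 had 57 and 44 counts in QKO and 450 and 141 in QT7. Both QT7 libraries lay above the other 6, at 11.5 and 3.24 CPM against 1.22 to 2.57, and they differed from each other more than the replicates of any other group. Its log2 fold over QKO was 2.30 ± 0.54 (SE), with an adjusted p of 0.0154 by edgeR. Without the first QT7 library the fold was 1.13 (adjusted p 0.0419) and without the second 2.95. The call was lost without the first (adjusted p 0.0648) or the second (0.126) QKO library, and in a fit of only these 2 groups (0.0589).

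Hoxb13 had 7 and 9 counts in QKO and 58 and 24 in QT7, which did not overlap. Its log2 fold was 2.10 ± 0.61 (SE), with an adjusted p of 0.0281. Without the first QT7 library the fold was 1.23 and the call was lost (adjusted p 0.174), as it was without either QKO library (0.131 and 0.133). The second gene from the end of cluster C, Hoxc12, did not pass the filter: WT had 0 and 2 counts of it, QKO 4 and 3, QT7 52 and 6 and QT7L1 5 and 1. The ratio of QT7 to QKO counts was 6.85 (95% exact interval 3.12 to 17.8, counting error only). Without the first QT7 library it was 1.35 (0.374 to 4.68).

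Hoxa7, a gene of the middle of cluster A that acts in the thorax, fell in both QT7 and QT7L1. Its counts were 32 and 29 for QKO, 13 and 16 for QT7, 11 and 11 for QT7L1 and 18 and 35 for WT. All 4 QT7 and QT7L1 libraries, at 0.332 to 0.368 CPM, lay below all 4 WT and QKO libraries, at 0.563 to 0.993 CPM. Against QKO the log2 fold was -1.35 ± 0.40 (SE) in QT7, with an adjusted p of 0.0305, and -1.42 ± 0.41 in QT7L1, with an adjusted p of 0.0267; the same QKO libraries enter both. Leaving out any library of either group compared ended each call, with adjusted p between 0.0620 and 0.147 in QT7 and between 0.0819 and 0.129 in QT7L1. The QT7 call was also lost without either QT7L1 library (0.0530 and 0.0531) and in a fit of QT7 and QKO alone (0.0630). DESeq2 called Hoxa7 in neither comparison (adjusted p 0.153 in QT7 and 0.135 in QT7L1), with log2 folds of -1.38 and -1.44. Of its exon bases 20.4% overlap a gene on the opposite strand.

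In QT7L1 cells against QKO, 3 of the 12 Hox genes tested were called, all lower in QT7L1, and of all genes tested 29.7% were called, 13.9% lower. The median of the 12 was 0.00 on the log2 scale, and that of all genes tested was 0.02. Hoxd13 had 32 and 51 counts in QKO and 9 and 12 in QT7L1, which did not overlap. Its log2 fold was -1.91 ± 0.47 (SE), with an adjusted p of 0.0139. The call was lost without the second QKO library (adjusted p 0.102) and without the first (0.101) or second (0.0696) QT7L1 library. Hoxa10 had 17 and 21 counts in QKO and 6 and 1 in QT7L1. It reached 10 counts in both libraries of a group only in QKO and QT7, where it was high, so its call is a description. The ratio of its summed counts was 0.191 (95% exact interval 0.0720 to 0.433, counting error only), and its fitted log2 fold was -2.35 ± 0.70 (SE), with an adjusted p of 0.0289. That fold was -1.59 without the second QT7L1 library (adjusted p 0.194) and -4.04 without the first, and the call was also lost without the first (0.0854) or second (0.128) QKO library. The third of the called members was Hoxa7, described above.

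The other 5′ members of cluster A lay lower in QT7L1 than in QKO without being called. They too were tested only through groups in which they were high, so their values are descriptions. Hoxa11 had 10 and 21 counts in QKO and 1 and 3 in QT7L1, a ratio of 0.134 (95% exact interval 0.0343 to 0.379, counting error only), and its adjusted p by edgeR was 0.0595. Hoxa13 had 11 and 20 counts against 6 and 2, with a log2 fold of -1.86 ± 0.70 (SE) and an adjusted p of 0.0685. Both passed the threshold when either QT7 library was left out. The QT7 libraries are not part of this comparison and enter it only through the shared fit. A larger share of all genes was also called in those fits. In QT7, the counts of these genes lay on both sides: Hoxa10 had 23 and 14, Hoxa11 18 and 2, and Hoxa13 22 and 10. The log2 fold of Hoxa11 in QT7 against QKO was -0.85 (adjusted p by edgeR 0.451), and -3.19 (0.0323) without the first QT7 library. Hoxc13 had 85 and 59 counts in QT7L1 and Hoxb13 had 13 and 14, both under the QT7 libraries.

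**Figure D4:**
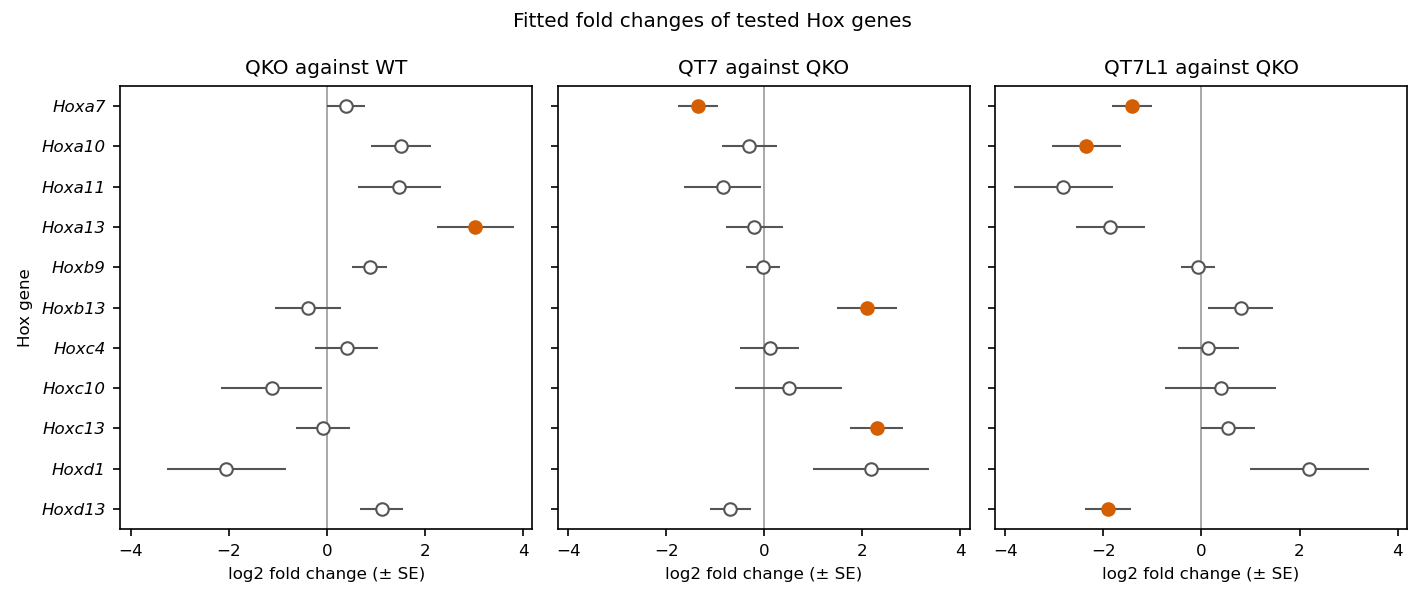
Fitted log2 fold change with its SE for the tested Hox genes with values reported here, for QKO against WT, QT7 against QKO and QT7L1 against QKO; filled points have an adjusted p under 0.05. Called members are Hoxa13 in the first panel, Hoxa7, Hoxb13 and Hoxc13 in the second, and Hoxa7, Hoxa10 and Hoxd13 in the third.

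Between QT7 and QT7L1 directly, 0 of 12 Hox genes were called by edgeR, which called 0.00606% of all genes tested. DESeq2 called 1 Hox gene, Hoxc13, and 0.911% of all genes. Hoxc13 differed by 1.75 ± 0.53 (SE) on the log2 scale, with an adjusted p of 0.304 by edgeR and 0.0261 by DESeq2. Hoxa10, Hoxa13, Hoxb13 and Hoxd13 also lay higher in both QT7 libraries than in both QT7L1 libraries, with log2 folds of 2.05, 1.66, 1.29 and 1.22 and adjusted p of 0.330 to 0.440. Without the first QT7 library, the ratio of QT7 to QT7L1 counts was 1.48 for Hoxc13 (95% exact interval 1.17 to 1.88, counting error only). For Hoxa10 it was 3.03 (1.14 to 8.87) and for Hoxa13 1.89 (0.673 to 5.52). For Hoxb13 it was 1.35 (0.744 to 2.42) and for Hoxd13 1.51 (0.787 to 2.92). Against WT, QT7 had 0 of 12 called by edgeR, where 4.62% of all genes tested were called. DESeq2 called 2 Hox genes there (Hoxc12 and Hoxc13) and 4.97% of all genes. Hoxc13 had a log2 fold of 2.22 ± 0.54 (SE) over WT and an adjusted p of 0.0534. Hoxa13 had 1 and 3 counts in WT and 22 and 10 in QT7, a ratio of 7.36 (95% exact interval 2.61 to 28.6, counting error only), and its adjusted p was 0.0692. Without the first QT7 library the ratio was 4.37 (1.26 to 19.1). In the same setting the ratio of QT7 to WT counts was 2.04 (1.59 to 2.62) for Hoxc13 and 1.75 (0.951 to 3.22) for Hoxb13. QT7L1 against WT had 0 of 12 called by edgeR and 0 Hox genes by DESeq2, with 0.745% and 2.22% of all genes called.

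The authors' deposited table of QKO against QT7 listed Hoxc13 at a log2 value of -1.49 (QKO over QT7, adjusted p 2.90e-05) and Hoxc12 at -0.66 (0.0448). The authors' deposited table of QKO against QT7L1 listed Hoxd13 at 0.85 (0.0423), and that of QT7 against QT7L1 listed Hoxc13 at 1.17 (0.0201). The authors' deposited table of WT against QT7 listed Hoxc13 at -1.46 (1.61e-04) and Hoxc12 at -0.79 (0.0294). For Hoxc13 and Hoxd13 the deposited log2 values were smaller in size than the edgeR folds above. The methods may scale folds differently, so their sizes are not compared here. No Hox gene had an adjusted p under 0.05 in the authors' deposited tables of WT against QKO and of WT against QT7L1. Hoxa13, called by edgeR in QKO against WT, had an adjusted p of 0.137 there.

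The remaining members with 10 counts in some library were few and low. Hoxb4, of the neck region, had 7 and 7 counts for WT, 13 and 9 for QKO, 10 and 2 for QT7 and 3 and 2 for QT7L1. Hoxb7 had 4 and 7, 9 and 10, 6 and 2, and 0 and 2 in the same order. For both, each QKO library had more counts than either WT or QT7L1 library, and neither passed the filter. Hoxc4 had 9 and 4, 8 and 8, 9 and 12, and 6 and 11. Hoxc10, a gene of the lumbar region, had 11 and 6, 6 and 1, 11 and 1, and 4 and 5. Both were spread over all groups without order. Hoxc6 had 2 and 3, 10 and 0, 5 and 5, and 4 and 1. Hoxd1, at the 3′ end of cluster D, had 10 and 4, 0 and 3, 14 and 3, and 5 and 9.

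Among the 16 members that reached 10 counts anywhere, the first QT7 library (clone A) held the highest level of 7, among them Hoxa10, Hoxa13, Hoxb13, Hoxc12, Hoxc13 and Hoxd1. The first QKO library held the highest level of 5 (Hoxa7, Hoxb4, Hoxb7, Hoxb9 and Hoxc6) and the second of 2 (Hoxa11 and Hoxd13). Markers of cells that could accompany ES cells were read in the same libraries. Of 20 fibroblast markers, a type whose cells express many Hox genes and often serve as feeders, 7 were at 0 in the first QT7 library (Col3a1, Dcn, Lum, Postn, Twist2, Prrx1 and Fap), against 2 to 5 in the other 7 libraries. The summed level of that list was 1407 CPM in the first QT7 library and 1057 to 1642 over all 8, of which Fn1 and Vim made up 83.8% to 95.8%. Without these 2, left out after the values were seen, the other 18 summed to 183 CPM in the first QKO library and 68.6 to 146 in the other 7. That library held the highest level of 7 of the markers: Col1a1, Col1a2, Col5a2, Postn, Thy1, Prrx1 and Fbn1. The first WT library held the highest level of 6 others, so high markers were not particular to the first QKO library. Col1a1 was at 51.0 CPM in the first QKO library and 5.82 in the second. It was at 38.6 and 18.2 in WT and 2.58 to 13.2 in QT7 and QT7L1. Of these 20, 15 were tested. QKO against WT gave 2 higher and 1 lower, QT7 against QKO 2 and 0, and QT7L1 against QKO 2 and 1. Of all genes tested, 26.4%, 26.9% and 29.7% were called in these comparisons, in the same order. The 8 neural markers summed to 109 CPM in the first QT7 library, 208 in the first QKO library and 90.1 to 208 over all. Neurog2 was at 0 in every library. The 7 endoderm markers summed to 53.9 CPM in the first QT7 library, 34.6 in the first QKO library and 31.5 to 77.4 over all. Afp was at 0 in all libraries but the first QT7 library. The part of other cell types in the Hox counts was not tested beyond these values.

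Promoter sequence was at hand for 22 of the 39 members, as 24 entries of 250 bases upstream of a RefSeq transcript start (GRCm38.p6). The motif CTTTGA, the core that TCF/LEF factors are known to bind, was searched on both strands (TCAAAG on the other). It was present in 3 of the 24 entries, or 12.5%, against 13.8% of 32851 promoters of all genes. The 3 were 1 of the 2 entries of Hoxa10 and those of Hoxd8 and Hoxd12. The windows held a median of 12.5 CpG dinucleotides (2 to 35), against 6 over all promoters. The Hoxa10 window lies in an intron of the longer Hoxa10 transcripts and upstream of the shorter one. It is shown for its 2 matches, in capitals, in a gene called between QT7L1 and QKO. The other Hoxa10 entry held no match, nor did those of Hoxa7 and Hoxd13, called in the same comparison. The Hoxa13 window, with 35 CpG and no match, is shown for the member called between QKO and WT.
Hoxa10 (chr6:52234940-52235189, minus strand): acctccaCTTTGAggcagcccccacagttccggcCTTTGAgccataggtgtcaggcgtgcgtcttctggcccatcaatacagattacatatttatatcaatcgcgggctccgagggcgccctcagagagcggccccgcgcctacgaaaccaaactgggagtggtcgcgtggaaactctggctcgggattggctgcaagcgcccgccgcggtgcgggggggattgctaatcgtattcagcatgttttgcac
Hoxa13 (chr6:52260881-52261130, minus strand): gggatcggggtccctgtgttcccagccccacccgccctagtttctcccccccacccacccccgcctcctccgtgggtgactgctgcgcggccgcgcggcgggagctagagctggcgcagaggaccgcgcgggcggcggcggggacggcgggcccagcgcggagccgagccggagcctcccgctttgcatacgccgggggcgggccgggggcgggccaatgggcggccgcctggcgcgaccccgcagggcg
A match is a description of these letters and not a binding site.

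The genes known to act on the clusters, or with their products, were read from lists in the same fits. The caudal and ParaHox list holds the Cdx genes, direct activators of Hox clusters, and Gsx1, Gsx2 and Pdx1, and its 6 members were all tested. Of all genes tested, 26.4% were called in QKO against WT, 26.9% in QT7 against QKO and 29.7% in QT7L1 against QKO. In QKO against WT 2 rose and 0 fell: Cdx4 by 2.11 ± 0.57 (SE) on the log2 scale, with an adjusted p by edgeR of 0.0232, and Cdx1 by 1.51 ± 0.44 (0.0356). Cdx4 was at 0.157 and 0.113 CPM in WT and 0.559 and 0.610 in QKO, and Cdx1 at 3.0 and 4.9 against 12 and 10.7. Cdx1 was at 5.77 and 15.0 CPM in QT7 and 9.02 and 12.9 in QT7L1, and was called in neither against QKO. In QT7L1 against QKO 0 rose and 3 fell, Cdx4, Cdx2 and Gsx1, with log2 folds of -2.24, -2.39 and -2.12 (adjusted p 0.0187, 0.0217 and 0.0236). In QT7 against QKO 1 rose, Gsx2 (3.55 ± 0.99, 1.15 and 0.322 CPM in QT7 against 0.124 and 0), and 2 fell, Cdx2 (-2.52) and Gsx1 (-2.07). Without the first QT7 library none of these 3 was called (adjusted p 0.118, 0.0751 and 0.0825), with folds of 2.39, -2.11 and -1.76. The median folds of the list were 1.52 in QKO against WT, -1.06 in QT7 against QKO and -1.09 in QT7L1 against QKO, beside -0.01, 0.05 and 0.02 over all genes tested.

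Of 32 Polycomb repressor genes, 6 rose and 4 fell in QKO against WT, 3 rose and 7 fell in QT7 against QKO, and 3 rose and 6 fell in QT7L1 against QKO, with medians of 0.11, -0.08 and -0.09 on the log2 scale. Of all genes tested, 26.4%, 26.9% and 29.7% were called in these comparisons, which is the background for this list and those that follow. Epop, a cofactor of Polycomb repressive complex 2, rose by 0.74 in QKO and changed by -0.91 in QT7 and -1.13 in QT7L1 against QKO. Eed, a core subunit of that complex, was called in the same comparisons, at 0.62, -0.73 and -0.70. Of 12 Trithorax and demethylase genes, which oppose Polycomb, 2 rose and 1 fell in QKO, 1 rose and 5 fell in QT7 and 0 rose and 1 fell in QT7L1, with medians of 0.05, -0.24 and -0.17. Of the 9 TALE cofactors, homeodomain partners that bind DNA with Hox proteins, 0 rose and 2 fell in QKO (Pbx3 by -1.27 and Pbx4 by -1.24), 0 were called in QT7, and 0 rose and 1 fell in QT7L1 (Meis1, -1.40), with medians of 0.02, -0.04 and -0.18.

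Of 19 genes of the retinoic acid pathway 16 were tested, and 2 rose and 2 fell in each of the 3 comparisons with QKO, with medians of -0.07, -0.07 and -0.20. The receptor gene Rarg rose by 0.53 in QKO and changed by -0.78 in QT7 and -1.03 in QT7L1. Of 13 posterior body axis regulators 12 were tested. In QKO against WT 3 rose and 2 fell, Fgf17 (0.87), Wnt3a (1.74) and Nkx1-2 (2.80) among the former and Wnt3 (-2.60) among the latter. In QT7 against QKO 0 rose and 1 fell, and in QT7L1 against QKO 0 rose and 6 fell, among them Sp5 (-2.11), Nkx1-2 (-3.22) and Fgf17 (-1.0). The medians of that list were -0.16, -0.37 and -1.0. Which of these changes bears on the Hox counts was not tested.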

How the data were processed

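Poly(A) RNA from 8 libraries (250 ng of total RNA, TruSeq stranded mRNA kit, per the labels' protocols) had been aligned to mm10 with STAR 2.4.0f1 and counted with HTSeq, per the submitters' processing notes (strand setting not given in the sources used here). Raw whole-number counts per gene were deposited. The authors' deposited comparison tables hold, per the file headers, a mean signal per gene, a log2 fold change with its error, the test's score and p-values, raw and adjusted, attributed to DESeq2 2.1.8.3 in the submitters' processing notes; their folds are of the first group over the second.

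Members were matched by Ensembl identifier, and positions, exon lengths and overlaps came from GENCODE M21. Counts were tested with edgeR 4.0.16 in R 4.3.3: the default filter on low counts, TMM scaling, a mean for each of the 4 groups over all 8 libraries, the robust quasi-likelihood F test (4 residual degrees of freedom before moderation), 2-sided, with Benjamini-Hochberg adjustment. CPM are counts per 1000000 of the TMM-adjusted library size. The SE of a log2 fold was derived from the fold and its F statistic. Count ratios carry a 95% exact binomial (Clopper-Pearson) interval that covers counting error only. The scripts recovered known changes in simulated counts. Alternatives were RLE size factors, DESeq2 1.42.0, other filters, only the compared groups, a replicate block and leaving out each library. Where DESeq2 gave no adjusted p it was left as missing.

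Members with 10 or more counts in any library are named with every library's value, and the others with their range, except 1 member that is counted in the totals and is not reported here; from each of 11 gene lists at most 4 members, those of lowest adjusted p in a comparison, may be named. Folds of members are printed only where they were called or at least 2-fold. The members and the lists were chosen with earlier results of these data known.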

Additional observations from a re-analysis of the deposited data

How the results depend on the processing

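The number of Hox genes called depended on the fit. By DESeq2 it was 0 in QKO against WT (where Hoxa13 got no adjusted p), 1 in QT7 against QKO, 1 in QT7L1 against QKO, 1 in QT7 against QT7L1 and 2 in QT7 against WT. With only the compared groups it was 3 in QKO against WT (32.3% of all genes tested) and 1 in QT7 against QKO (19.9%). With no filter on low counts, every member but the 2 with 0 counts in all libraries was tested. It was then 6 in QT7L1 against QKO, 2 in QT7 against QT7L1 and 4 in QT7 against WT. Of all genes tested, 22.2%, 3.98% and 8.50% were called in these fits. Leaving out 1 library at a time gave 0 to 2 in QKO against WT, 0 to 3 in QT7 against QKO, 0 to 6 in QT7L1 against QKO, 0 to 5 in QT7 against QT7L1, 0 to 4 in QT7 against WT and 0 in QT7L1 against WT; where a group was left with 1 library, it was assumed to vary like the others. Leaving out 1 library also moved the share of all genes called. Hox calls lost or gained in those fits are thus not shown to be particular to Hox genes. Over all genes, the number called in QT7 against QT7L1 was 1 as reported, 236 by DESeq2 and 1030 with no filter. With RLE size factors or a minimum of 10 counts in 2 libraries, each Hox count was within 1.5 times of the reported one; the minimum of 10 counts gave 4 calls over all genes in QT7 against QT7L1. The log2 fold of Hoxa11 in QT7 against QT7L1 was 1.97 as reported and -0.37 without the first QT7 library (highest 2.90, leaving out the second QT7L1 library), the only reversal among 29 gene and comparison pairs that were called or at least 2-fold. The other 43 pairs were under 2-fold, and 32 of them changed sign under some alternative. Among 1848 values of the list counts, 376 lay beyond 1.5 times the reported count.

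With the replicate number as a block, Hox calls were 1 in QKO against WT, 3 in QT7 against QKO, 3 in QT7L1 against QKO, 0 in QT7 against QT7L1, 1 in QT7 against WT (Hoxc13, log2 fold 2.00, adjusted p 0.0344) and 0 in QT7L1 against WT. Of all genes tested in that fit, 26.1%, 26.6%, 29.4%, 0.0121%, 4.85% and 1.02% were called, in the same order. Same-numbered libraries deviated from their group means with correlations of -0.205 to 0.164 between groups, so the numbers do not pair the libraries. At 10 counts or fewer, counting error alone limits the folds. Of the 27 members not tested, Hoxc12, Hoxb7 and Hoxb4 were called by edgeR in some comparison with no filter or without 1 library.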

Other observations

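Other genes lie inside and beside the clusters. Of 46 non-Hox genes annotated within the cluster spans, 4 had 10 or more counts in at least 1 library and 3 were tested. Gm53, a long noncoding RNA between Hoxb13 and Hoxb9, had 128 and 162 counts for WT, 289 and 237 for QKO, 603 and 461 for QT7 and 275 and 263 for QT7L1. No library of QT7 overlapped with one of another group, and both WT libraries were lowest. Its log2 fold was 1.02 ± 0.24 (SE) in QKO against WT, with an adjusted p by edgeR of 0.0130, 0.74 ± 0.23 in QT7 against QKO (0.0385) and 1.76 ± 0.24 in QT7 against WT (0.00588). Hoxb13 and Hoxb9, on either side of it, had at most 77 counts in any library.

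Evx1, a homeobox gene of the posterior embryo 52618 bases beyond Hoxa13, had 15 and 4 counts for WT, 142 and 143 for QKO, 48 and 4 for QT7 and 6 and 4 for QT7L1. It rose by 3.98 ± 1.00 (SE) on the log2 scale in QKO against WT (adjusted p by edgeR 0.0245) and changed by -4.75 ± 1.08 in QT7L1 against QKO (0.0154). Its counterpart Evx2, 8753 bases beyond Hoxd13, had 0 counts in all 8 libraries. These genes are named by their place beside the clusters, and no explanation was tested.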
